A study of Homo sapiens with 2 samples.

Results

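The small nucleolar RNA (snoRNA) host genes *GAS5*, *SNHG1*, *SNHG5*, *SNHG6*, *SNHG7*, *SNHG8*, *SNHG12*, *SNHG15*, and *ZFAS1* were followed in single cells of HCT116, a human colon cancer cell line, with and without a DNA demethylating drug. The 9 genes were picked by name, with earlier results of these data known, and no measured value entered the rule. Of these, *SNHG7*, *SNHG8*, *SNHG12*, *SNHG15*, and *ZFAS1* were found by name in both count tables, which list 33538 genes, and the other 4 genes were not analysed here. Decitabine (DAC) is a cytidine analog that enters DNA during replication and captures the enzymes that methylate it, which leaves newly made DNA with less methylation. The DAC-treated group was given the drug at 0.5 µM and the mock-treated group at 0 µM, in 2 doses that fell 1 and 3 days after plating. The drug was withdrawn at day 5 by a change of medium, and libraries were made from cells collected at day 7. Both groups were the same cell line, and no other difference between them was stated. A single library of droplet-captured cells was made from each group, so values of cells describe these 2 libraries and there is no replicate culture against which to test the treatment.

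The mock-treated library had 49911689 unique molecular identifiers (UMIs, tags that count each captured transcript once) in 1783 cells, with a median of 27899 per cell. For DAC-treated cells, these numbers were 59046165 UMIs, 1751 cells, and 35340 per cell. In 311 mock-treated and 319 DAC-treated cells, mitochondrial genes took over 50% of UMIs, and 12 cell barcodes were present in both libraries. Of 7 epithelial markers, all had UMIs in both libraries, with summed levels of 4935 UMIs per 1000000 (CPM) in mock-treated and 7955 CPM in DAC-treated cells. The largest difference was that of *KRT18* (2030 and 4280 CPM), whereas *EPCAM* (349 and 222 CPM) and *CDH1* (23.1 and 21.1 CPM) were lower in DAC-treated cells. The intestinal markers *VIL1* and *LGALS4* had only 37 and 7 UMIs in mock-treated cells. Of 6 markers of other cell types, 5 were at 0 in mock-treated cells and the exception was the collagen gene *COL1A1* with 533 UMIs, while all 6 had at least 1 UMI in DAC-treated cells, where *COL1A1* had 1112 of their 1212 UMIs.

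A snoRNA host gene is transcribed and spliced like an mRNA gene, and its introns are trimmed into snoRNAs that guide the chemical modification of ribosomal RNA. Box C/D snoRNAs guide 2′-O-methylation and box H/ACA snoRNAs guide pseudouridylation. Many host transcripts begin with a pyrimidine-rich stretch, the 5′ terminal oligopyrimidine (TOP) motif that they share with ribosomal protein mRNAs, and many spliced host RNAs encode no long protein and are removed by nonsense-mediated decay when ribosomes translate them. The UMIs count the spliced, polyadenylated host RNA, and the snoRNAs themselves were not measured by them.

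*ZFAS1* lies on the plus strand of chromosome 20 (hg38, chr20:49278178-49299600 in GENCODE release 44) and holds 3 intronic snoRNAs of the C/D class, *SNORD12C*, *SNORD12B*, and *SNORD12*. They are shown because the gene with the highest level among the hosts carries 3 related guides in 1 transcript, and capitals mark box C (TGATGA) followed by box D (CTGA), both read on the snoRNA strand. The sequences, taken 5′ to 3′ from the plus strand of hg38, were as follows.
SNORD12C at chr20:49278940-49279028: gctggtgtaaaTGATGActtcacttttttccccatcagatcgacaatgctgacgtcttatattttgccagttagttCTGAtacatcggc
SNORD12B at chr20:49280319-49280409: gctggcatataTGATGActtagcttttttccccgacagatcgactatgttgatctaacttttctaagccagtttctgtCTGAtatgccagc
SNORD12 at chr20:49280683-49280772: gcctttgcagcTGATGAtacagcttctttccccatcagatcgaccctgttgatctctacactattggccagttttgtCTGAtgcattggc
In all 3 sequences box C started at base 12, and box D started at bases 77, 79, and 78, respectively.

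*SNHG8* (plus strand, chr4:118278703-118285316) holds the H/ACA snoRNA *SNORA24* in an intron. It is shown as the single guide of the other host whose level differed by more than 3-fold, and capitals mark the terminal ACA box, 3 bases before its end.
SNORA24 at chr4:118279190-118279320: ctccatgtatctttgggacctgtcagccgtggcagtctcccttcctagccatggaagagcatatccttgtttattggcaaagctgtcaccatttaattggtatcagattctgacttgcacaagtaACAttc
*SNHG7* (minus strand, chr9:136721366-136728184) holds the H/ACA snoRNAs *SNORA17A* and *SNORA17B*. *SNHG12* (minus strand, chr1:28578538-28583132) holds *SNORD99*, *SNORA61*, *SNORA44*, and *SNORA16A*. *SNHG15* (minus strand, chr7:44983019-44986961) overlaps *SNORA9*, which was the only one of these snoRNAs not inside an intron of the canonical transcript.

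The start regions are shown because the TOP motif is the feature that links these genes to ribosomal proteins. Entries were found in the RefSeq promoter table (GRCh38.p14) for *SNHG7*, *SNHG8*, *SNHG12*, and *ZFAS1*. Each line gives 50 bases before and 25 bases after the annotated start on the strand of the gene, and capitals mark first a TATAA motif and then a run of at least 5 C or T bases that begins with C.
SNHG7 at chr9:136728160-136728234, minus strand: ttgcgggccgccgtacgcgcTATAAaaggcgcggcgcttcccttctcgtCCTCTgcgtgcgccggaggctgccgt
SNHG8 at chr4:118278712-118278786, plus strand: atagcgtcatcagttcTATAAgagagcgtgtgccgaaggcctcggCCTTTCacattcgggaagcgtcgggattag
SNHG12 at chr1:28581849-28581923, minus strand: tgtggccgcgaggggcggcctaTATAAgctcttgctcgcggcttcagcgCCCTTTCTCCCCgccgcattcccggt
ZFAS1 at chr20:49278592-49278666, plus strand: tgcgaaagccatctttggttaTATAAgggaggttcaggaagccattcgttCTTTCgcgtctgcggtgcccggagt
All 4 had a C-started pyrimidine run that began within 10 bases of the annotated start, of 5 bases in *SNHG7* and *ZFAS1*, 6 in *SNHG8*, and 12 in *SNHG12*. It began at the annotated start in *ZFAS1*, 1 base before it in *SNHG7* and *SNHG12*, and 5 bases before it in *SNHG8*. The run of *SNHG8* thus lay mostly before the annotated start, and a TOP motif at its 5′ end was not shown. Of all 27305 promoters, 31.3% had such a run, and among the 63 of 79 ribosomal protein promoters with an entry the share was 87.3%. All 4 also had a TATAA motif, which began 28 to 34 bases before the start. This motif, searched on the strand of the gene from 40 to 15 bases before the start, was present in 4.22% of all promoters and 9.52% of the ribosomal protein promoters, and 1.33% of all promoters had both motifs. Within 300 bases around the start, the 4 promoters had 29 to 43 CpG sites, compared with a median of 14 over all promoters and of 23 (quartiles 18 and 29) over ribosomal protein promoters. A match describes these letters and does not show that a factor binds there.

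To compare the level of each host RNA between the groups, its UMIs were summed over all cells of a library and scaled to CPM. Since a UMI tags 1 molecule near its poly(A) tail, levels of different genes were compared as UMIs and were not divided by transcript length. *ZFAS1* and *SNHG8* were about 4-fold lower in DAC-treated cells, *SNHG12* was lower by a smaller factor, *SNHG15* was close between the groups, and *SNHG7* was higher. All intervals are exact 95% intervals and cover counting error only, not the difference between cultures.

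*ZFAS1*, transcribed next to the start of *ZNFX1* in the opposite direction, had 57893 UMIs in mock-treated and 16652 UMIs in DAC-treated cells. The levels were 1159.9 and 282 CPM, a DAC/mock ratio of 0.243 (0.239 to 0.247), so that the mock-treated level was 4.11 times the DAC-treated level. Among all genes ordered by CPM, *ZFAS1* was at rank 110 in mock-treated and rank 408 in DAC-treated cells. *SNHG8* had 16885 and 5259 UMIs, or 338 and 89.1 CPM, a ratio of 0.263 (0.255 to 0.272). Its rank was 269 in mock-treated and 1482 in DAC-treated cells. In both genes the counting interval of the DAC-treated library lay far below that of the mock-treated library.

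*SNHG12* had 3739 and 2589 UMIs, or 74.9 and 43.8 CPM, a ratio of 0.585 (0.556 to 0.616). This value depended on how cells were weighted, since the log2 ratio was -0.77 for summed UMIs and -0.11 when the CPM of every cell was averaged with equal weight. *SNHG15* had 3592 and 3803 UMIs, or 72.0 and 64.4 CPM, a ratio of 0.895 (0.855 to 0.937). *SNHG7* had 6479 and 10277 UMIs, or 129.8 and 174 CPM, a ratio of 1.34 (1.30 to 1.38). In mock-treated cells *SNHG7* followed *ZFAS1* and *SNHG8* in level, whereas in DAC-treated cells it came directly after *ZFAS1*. Within each library no neighbors in this order had overlapping counting intervals except *SNHG12* and *SNHG15* in mock-treated cells.

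**Figure D1:**
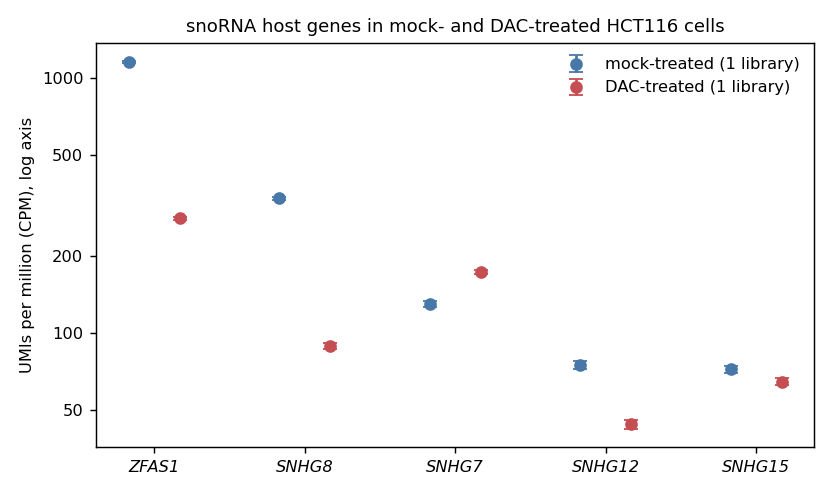
Level of each host gene in UMIs per 1000000 (CPM, log axis) in the mock-treated (blue) and DAC-treated (red) library, 1 library per group, with 95% counting intervals as bars. *ZFAS1* was at 1159.9 and 282 CPM and *SNHG8* at 338 and 89.1 CPM, while *SNHG7* was the only host with the higher value in DAC-treated cells (129.8 and 174 CPM).

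Together, the 5 genes had 88588 UMIs (1775 CPM) in mock-treated and 38580 UMIs (653 CPM) in DAC-treated cells, a ratio of 0.368 (0.364 to 0.373). *ZFAS1* gave most of these UMIs in mock-treated cells, and without it the ratio of the other 4 genes was 0.604 (0.593 to 0.614). The middle of all genes was not at 0. Over the 12815 genes that reached 100 UMIs in at least 1 library, the median log2 ratio was 0.25, with quartiles of -0.24 and 0.72, and median-of-ratios scaling over 11152 genes placed the shift at 0.18. Relative to this shift, the log2 differences were -2.22 for *ZFAS1*, -2.11 for *SNHG8*, -0.96 for *SNHG12*, -0.34 for *SNHG15*, and 0.24 for *SNHG7*. No direction changed with this scaling, but the difference of *SNHG7* became smaller.

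At a ratio of CPM past 1.5-fold, 3 of the 5 hosts (*ZFAS1*, *SNHG8*, and *SNHG12*) were lower in DAC-treated cells, compared with 13.7% of all genes, and 0 were higher, compared with 31.3% of all genes. At a smaller difference of 0.32 or more on the log2 scale, the same 3 hosts were lower, compared with 21.8% of all genes, and *SNHG7* was higher, compared with 45.6%. Relative to the shift of the median gene, *SNHG7* did not reach this limit and *SNHG15* did, so that 4 hosts were lower and 0 higher. The share of all genes past the limit was not computed relative to the shift. The shares above do not apply to these counts, which therefore have no background. A ratio lower than that of *ZFAS1* was found in 1.12% of genes, and one lower than that of *SNHG8* in 1.39%. For *SNHG12*, *SNHG15*, and *SNHG7*, the shares were 9.62%, 28.5%, and 60.0%. With 5 genes and 1 library per group, these shares describe the position of each gene and are not a test.

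Ribosomal protein mRNAs, the best known TOP mRNAs, were set beside the hosts. Their summed level was lower in DAC-treated cells, at 23.9% of UMIs in mock-treated and 15.5% in DAC-treated cells, a ratio of 0.650 (0.649 to 0.650). Of 79 genes, 75 were lower and 4 higher, with a median log2 ratio of -0.62 and a range from -1.28 for *RPL3* to 0.29 for *RPS26*. At 1.5-fold, 44 of the 79 were lower and 0 higher, compared with 13.7% and 31.3% of all genes. *ZFAS1* (-2.04) and *SNHG8* (-1.93) were below all 79 ribosomal protein genes. *SNHG12* (-0.77) was within their range, with 25 of them below it, *SNHG15* (-0.16) had 74 below it, and *SNHG7* (0.42) was above all 79. The hosts were therefore spread over a wider range than the ribosomal protein genes on both sides.

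Other genes that host snoRNAs differed in both directions. From a list of 20 names of further non-coding hosts, synonyms included, 10 were found, the other names were not analysed here, and 7 had 100 UMIs or more, with a median log2 ratio of -0.75. At 1.5-fold, 4 of the 7 were lower and 2 higher, compared with 13.7% and 31.3% of all genes. *EPB41L4A-AS1*, which hosts *SNORA13*, had 6832 and 1499 UMIs and the lowest log2 ratio of the list (-2.43), below that of *ZFAS1*. *SNHG9*, the host of *SNORA78*, had 1044 and 3761 UMIs and the highest (1.61). Among 20 protein-coding hosts outside the ribosome, 5 were lower and 4 higher at 1.5-fold, beside the same shares of all genes, and the median was 0.01. The lowest was *TAF1D* (-1.01), a subunit of an RNA polymerase I factor, and the highest was the chaperone gene *HSPA8* (1.65).

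**Figure D2:**
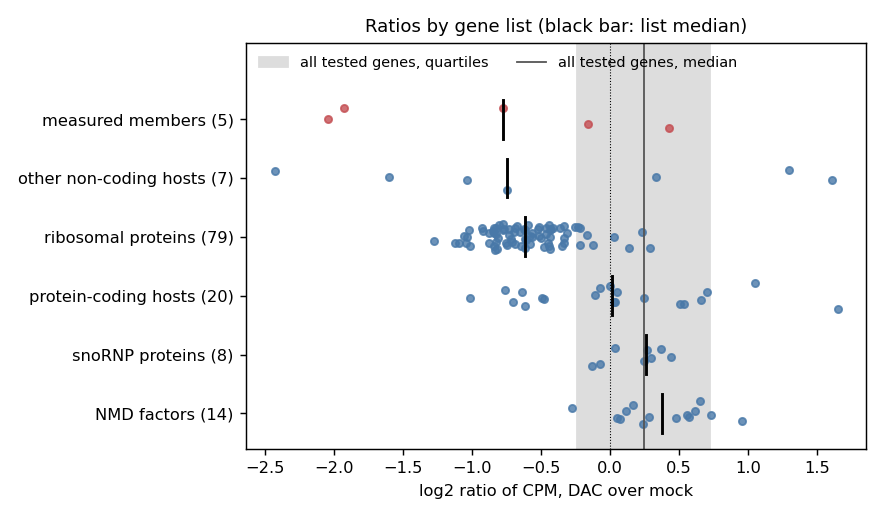
Log2 ratio of CPM (DAC over mock) of each gene with 100 UMIs or more, grouped by list, with the number of genes in brackets, the list median as a black bar, and the median and quartiles of all tested genes as a grey line and band. *ZFAS1* and *SNHG8* (2 leftmost red points) lie left of all 79 ribosomal protein genes, and *SNHG7* (rightmost red point, 0.42) lies right of them.

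The proteins that bind mature snoRNAs and the factors of nonsense-mediated decay were close to the background of all genes, which had a median log2 ratio of 0.25. Of 8 snoRNP core protein genes, 0 were past 1.5-fold in either direction, with a median log2 ratio of 0.26 and values from -0.13 for the methyltransferase gene *FBL* to 0.44 for *NOP10*. Of 14 genes of nonsense-mediated decay factors, 4 were higher and 0 lower at 1.5-fold, compared with 31.3% and 13.7% of all genes, with a median of 0.38. The lowest was *UPF3B* (-0.27) and the highest was *SMG8* (0.96), which had only 111 UMIs in mock-treated cells. Of 6 mRNAs known as targets of nonsense-mediated decay, 3 were lower and 0 higher at 1.5-fold, with a median of -0.82. *DDIT3*, a stress-induced transcription factor gene, was the lowest (7896 and 2194 UMIs, -2.09), and *GADD45B* was the highest (1561 and 2365 UMIs, 0.36). *DDIT3* also belongs to the target genes of ATF4, which is made when amino acids run short, of which 12 of 13 had 100 UMIs or more. At 1.5-fold, 11 of these 12 were lower and 0 higher, with a median of -2.38 and a range from -3.81 for *DDIT4* to -0.20 for *ATF3*.

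The protein-coding gene *ZNFX1* starts 216 bases from the start of *ZFAS1* on the opposite strand. It had 1065 UMIs in mock-treated and 3585 UMIs in DAC-treated cells, a ratio of 2.85 (2.66 to 3.05), opposite in direction to *ZFAS1*. The annotated span of *ZFAS1* overlaps *ZNFX1* on the opposite strand. *SNHG7*, *SNHG8*, and *SNHG12* similarly overlap *DIPK1B*, *PRSS12*, and *TRNAU1AP*, respectively, on the opposite strand. Whether reads were counted by strand was not given in the sources used here, and if they were not, UMIs of such neighbors could not be told apart.

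Next, the number of cells with each host RNA was counted. Before any correction for depth, *ZFAS1* was detected with 1 UMI or more in 87.5% (85.9 to 89.0) of mock-treated and 77.2% (75.1 to 79.1) of DAC-treated cells, with medians of 29 and 6 UMIs per cell. *SNHG8* was detected in 83.2% and 69.4% of cells, with medians of 8 and 2 UMIs. *SNHG7* was detected in 78.6% and 76.2%, with a median of 3 UMIs in both groups. *SNHG12* (63.7% and 54.8%) and *SNHG15* (66.6% and 61.8%) had a median of 1 UMI in both groups. At 3 UMIs or more, the shares in mock- and DAC-treated cells were 76.5% and 62.8% for *ZFAS1*, 71.2% and 42.1% for *SNHG8*, 51.5% and 56.4% for *SNHG7*, 29.1% and 19.1% for *SNHG12*, and 29.8% and 29.2% for *SNHG15*. All cells belong to a single line, so there was no cell type lacking these RNAs in which background from free RNA could be measured.

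To remove the difference in depth, every cell was thinned to 10000 UMIs, which kept 1388 mock-treated and 1293 DAC-treated cells and left out 395 and 458 shallower cells. At this depth, *ZFAS1* was detected in 97.5% (96.5 to 98.2) of mock-treated and 82.0% (79.8 to 84.0) of DAC-treated cells. *SNHG8* differed most, at 90.8% (89.1 to 92.2) and 50.6% (47.8 to 53.3). *SNHG12* was detected in 43.5% (40.9 to 46.2) and 29.5% (27.0 to 32.03). For *SNHG15*, the shares of 47.6% (44.9 to 50.2) and 42.8% (40.1 to 45.6) had overlapping intervals, as did those of *SNHG7*, 68.4% (65.9 to 70.9) and 70.2% (67.6 to 72.7). All 5 RNAs were detected together in 15.5% of mock-treated and 5.65% of DAC-treated cells, and none of them in 1 and 31 cells, respectively.

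**Figure D3:**
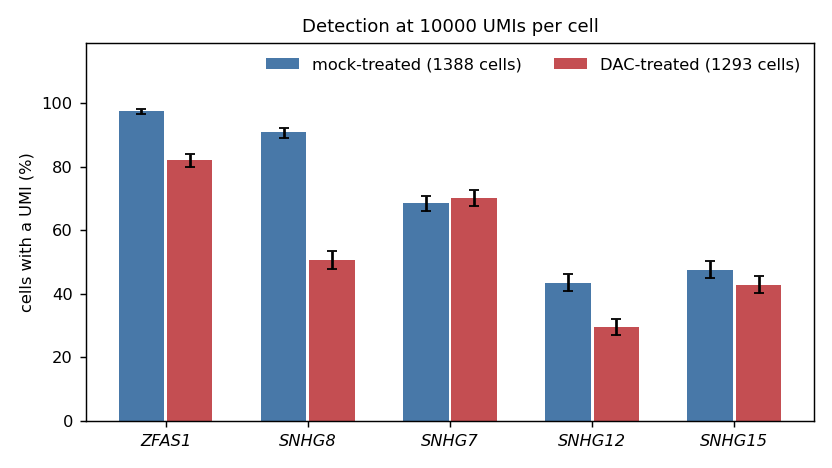
Share of cells (%) with at least 1 UMI of each host gene after thinning every cell to 10000 UMIs, in 1388 mock-treated (blue) and 1293 DAC-treated (red) cells, with exact 95% binomial intervals as bars. *SNHG8* shows the widest gap (90.8% and 50.6%), and the intervals of *SNHG7* and *SNHG15* overlap between the groups.

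The cells of a library were not alike. If each host's UMIs had been shared among cells in proportion to their depth, 74.2 mock-treated cells would have lacked *ZFAS1*, whereas 222 did, a ratio of 2.99. In DAC-treated cells this ratio was 1.45, and for *SNHG8* the ratios were 1.82 and 1.19. Variation beyond counting error was measured after thinning as the squared coefficient of variation minus the part that Poisson sampling gives. It was 0.222 in mock-treated and 0.701 in DAC-treated cells for *ZFAS1*, 0.234 and 0.635 for *SNHG8*, and 0.157 and 0.766 for *SNHG7*. For *SNHG12* it was 0.650 and 3.13, and for *SNHG15* 0.336 and 3.93. The median of 6963 genes was 0.170 and 0.332, so the value was higher in DAC-treated cells for all 5 hosts and for the median gene.

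The high values of *SNHG12* and *SNHG15* rested largely on few cells. The 13 DAC-treated cells (top 1%) with the most host UMIs had 29 to 67 of them per 10000, with a mean of 40.8 compared with 5.88 in the other 1280 cells. In these 13 cells, the mean of *SNHG15* was 8.92 UMIs, compared with 0.587, and that of *SNHG12* was 6.62, compared with 0.392. The highest counts in a single DAC-treated cell were 40 UMIs of *SNHG15* and 13 of *SNHG12*, so the mean of *SNHG15* rested in large part on its highest cell. Without them, the squared variation in DAC-treated cells was 0.409 for *SNHG15*, 1.21 for *SNHG12*, 0.507 for *ZFAS1*, 0.377 for *SNHG8*, and 0.560 for *SNHG7*. The 14 mock-treated cells chosen in the same way had 42 to 52 host UMIs, with a mean of 44.4 compared with 17.03 in the other cells, and leaving them out moved *SNHG15* only from 0.336 to 0.340. These cells were picked by their host UMIs after the data were seen, so their host levels are a description of the upper end. Leaving them out can by itself lower the variation of the hosts.

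The relation of host RNA to ribosomal protein mRNA was then examined across single cells thinned to 10000 UMIs. The points share 1 library, and a higher share for any gene leaves fewer UMIs for the others. For the summed hosts, Pearson's r with the summed ribosomal protein UMIs was 0.42 over 1388 mock-treated cells (Spearman's rho 0.26) and 0.20 over 1293 DAC-treated cells (rho 0.31). Without the 13 DAC-treated cells with the most host UMIs, r in DAC-treated cells was 0.29, and without the 14 such mock-treated cells it was 0.43 in mock-treated cells. By gene, r in mock- and DAC-treated cells was 0.43 and 0.33 for *ZFAS1*, 0.30 and 0.15 for *SNHG8*, and 0.06 and 0.08 for *SNHG7*. It was -0.07 and -0.12 for *SNHG12*, and -0.02 and -0.00 for *SNHG15*. By rank, the order of the groups was opposite for *ZFAS1*, with rho of 0.27 and 0.40. Over 6871 genes the median r was 0.036 and 0.064. A lower r than that of *ZFAS1* was found in 99.7% and 95.04% of these genes, and for *SNHG8* in 98.4% and 76.3%. For *SNHG7* these shares were 64.8% and 55.6%, for *SNHG15* 18.0% and 25.6%, and for *SNHG12* 7.57% and 4.10%. In counts this sparse, values of r near 0 are a description only.

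The mitochondrial share of a cell moved with both measures. The r of ribosomal protein UMIs with the percentage of mitochondrial UMIs was -0.83 in mock-treated and -0.84 in DAC-treated cells, and that of the summed hosts was -0.50 and -0.18. Among cells with up to 20% mitochondrial UMIs, the r of the summed hosts with ribosomal protein UMIs was 0.10 over 1030 mock-treated cells and 0.14 over 698 DAC-treated cells. In both libraries r of the summed hosts was thus lower within these cells than over all cells. By gene, r in these cells was 0.11 and 0.12 for *ZFAS1*, 0.13 and 0.16 for *SNHG8*, 0.03 and 0.15 for *SNHG7*, -0.15 and -0.05 for *SNHG15*, and -0.11 and 0.07 for *SNHG12*, whose sign in DAC-treated cells differed from that over all cells. When mock-treated cells were ordered by ribosomal protein UMIs and divided into 4 equal sets, the mean of the summed hosts was 13.3 in the lowest set and 18.2, 18.9, and 18.8 in the others. In DAC-treated cells, the means were 5.01, 5.93, 6.34, and 7.66. Per 10000 non-mitochondrial UMIs the order in DAC-treated cells was different, at 9.67, 7.44, 7.74, and 9.11, and the median mitochondrial share of these sets was 54.8%, 19.6%, 17.01%, and 15.4%. In mock-treated cells the values on this scale were 19.3, 21.9, 23.0, and 22.8, and the median mitochondrial shares were 18.5%, 16.8%, 17.5%, and 17.6%. These medians do not show cells with high shares within a set. Leaving out mitochondrial UMIs raised the lowest set most, from 13.3 to 19.3, so mitochondrial UMIs took a larger part there than in the other sets.

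**Figure D4:**
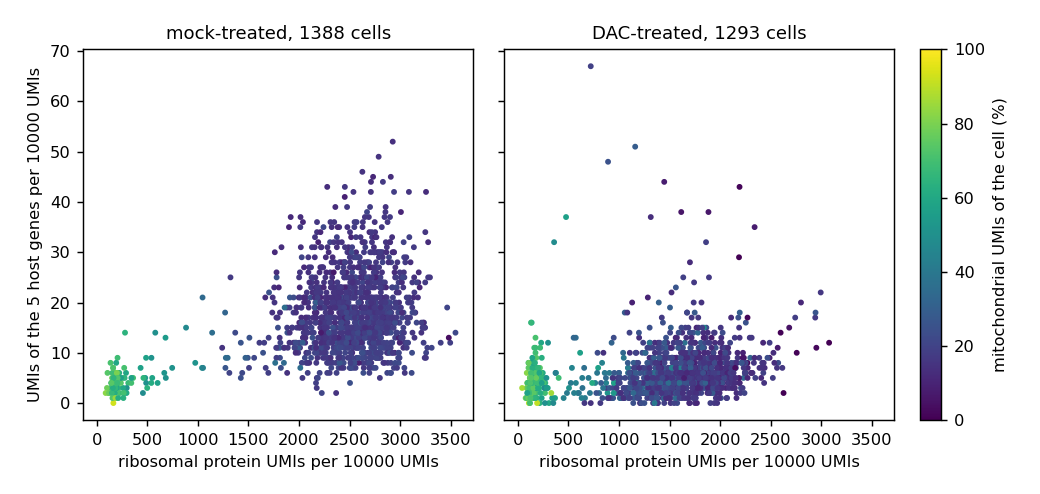
Summed UMIs of the 5 host genes against summed UMIs of 79 ribosomal protein genes per cell, both per 10000 UMIs, in 1388 mock-treated (left) and 1293 DAC-treated (right) cells, colored by the percentage of mitochondrial UMIs. Cells with high mitochondrial shares lie at the left with few ribosomal protein UMIs, and r was 0.10 and 0.14 for cells with up to 20% mitochondrial UMIs.

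Among themselves the hosts were weakly related. Over the 10 pairs of hosts, r ranged from 0.00 to 0.31 with a median of 0.11 in mock-treated cells and from 0.13 to 0.35 with a median of 0.23 in DAC-treated cells. The highest pair was *SNHG8* and *ZFAS1* in mock-treated cells (0.31) and *SNHG12* and *SNHG15* in DAC-treated cells (0.35). Without the 13 DAC-treated cells with the most host UMIs, r of this pair was 0.11, and the 10 pairs ranged from -0.02 to 0.18 with a median of 0.11. Without the 14 mock-treated cells chosen in the same way, r of *SNHG8* and *ZFAS1* was 0.30 and the median was 0.09. These cells were chosen by the sum of the same hosts, and leaving them out can by itself lower r between hosts. The part of this choice in the lower values was not tested. Pairs of ribosomal protein genes, which have many more UMIs, had medians of 0.59 and 0.60.

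Outside the hosts and ribosomal proteins, the 5 genes most like the summed hosts, ordered by the lower r of both libraries among 6958 genes, were *EPB41L4A-AS1*, *DDIT3*, *TNFRSF12A*, *EIF1*, and *C6orf48*. Both *EPB41L4A-AS1* (r of 0.36 in mock- and 0.30 in DAC-treated cells) and *C6orf48* (0.31 and 0.27) are themselves snoRNA hosts. *EIF1*, a translation initiation factor gene, had 0.42 and 0.29, *TNFRSF12A*, a receptor gene, had 0.32 and 0.29, and *DDIT3* had 0.30 and 0.45. Without the 13 DAC-treated cells described above, the values in DAC-treated cells were 0.15 for *EPB41L4A-AS1*, 0.10 for *DDIT3*, 0.18 for *TNFRSF12A*, 0.26 for *EIF1*, and 0.16 for *C6orf48*. In mock-treated cells, leaving out the 14 top cells gave 0.36 and 0.30 for *EPB41L4A-AS1* and *DDIT3*. Since these cells were chosen by their host UMIs, leaving them out can by itself lower r with the summed hosts. Among ribosomal protein genes the 5 most alike were *RPS12* (0.45 and 0.22), *RPS19* (0.34 and 0.22), *RPL12* (0.47 and 0.21), *RPL15* (0.30 and 0.20), and *RPS23* (0.40 and 0.20).

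Finally, the hosts were compared across cells with low and high mitochondrial shares, counted per 10000 non-mitochondrial UMIs so that the mitochondrial UMIs did not enter the total. In mock-treated cells, *ZFAS1* was at 15.3 in the 1176 cells with up to 20% mitochondrial UMIs, 11.7 in the 296 cells with 20 to 50%, and 3.74 in the 311 cells with more than 50%. The ratio of the last to the first was 0.244 (0.217 to 0.275), close to the 0.283 of ribosomal proteins. In DAC-treated cells, *ZFAS1* was at 3.70, 3.59, and 2.18, with a ratio of 0.588 (0.521 to 0.661), and ribosomal proteins had 0.354.

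*SNHG8* had ratios of 0.680 (0.593 to 0.776) in mock-treated and 1.34 (1.15 to 1.55) in DAC-treated cells. *SNHG7* (1.85 and 2.18), *SNHG12* (2.26 and 4.45), and *SNHG15* (1.88 and 2.33) were all higher per non-mitochondrial UMI in cells with more than 50% mitochondrial UMIs. The nuclear RNAs *MALAT1* (6.44 and 5.94) and *NEAT1* (5.75 and 8.33), added as nuclear comparators after the data were seen, were also higher in these cells. The cells with more than 50% mitochondrial UMIs had median depths of 7889 and 11117 UMIs, compared with 31334.5 and 39550.5 in those with up to 20%. The part of depth and of RNA lost from damaged cells in these ratios was not tested.

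The difference between DAC- and mock-treated cells was computed again within each range of mitochondrial share. In cells with up to 20%, the DAC/mock ratio was 0.242 (0.237 to 0.247) for *ZFAS1*, 0.253 for *SNHG8*, 0.552 for *SNHG12*, 0.877 for *SNHG15*, and 1.35 for *SNHG7*, all close to those over all cells. In cells with 20 to 50%, the values were 0.307, 0.309, 0.776, 1.08 (0.969 to 1.20), and 1.32 in the same order. In cells with more than 50%, they were 0.583 (0.493 to 0.689), 0.499 (0.409 to 0.609), 1.09 (0.900 to 1.32), 1.09 (0.877 to 1.36), and 1.59 (1.36 to 1.86). *ZFAS1* and *SNHG8* were thus lower and *SNHG7* higher in DAC-treated cells in all 3 ranges. The intervals of *SNHG15* above 20% and of *SNHG12* above 50% included 1. For the summed hosts the ratio was 0.358, 0.446, and 0.927 (0.857 to 1.00). For the summed ribosomal proteins it was 0.679, 0.642, and 0.849, so that they too were closest to 1 in cells with more than 50%.

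**Figure D5:**
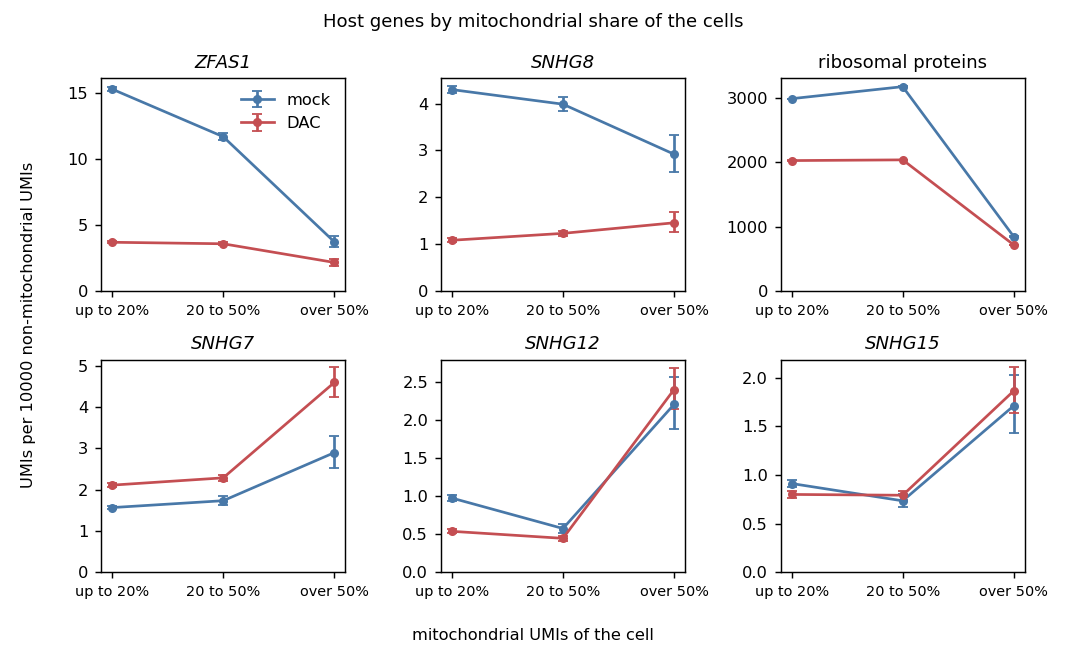
UMIs per 10000 non-mitochondrial UMIs of each host gene and of the summed ribosomal proteins, in cells with up to 20%, 20 to 50%, and more than 50% mitochondrial UMIs, for the mock-treated (blue) and DAC-treated (red) library, with 95% counting intervals as bars. *ZFAS1* in mock-treated cells is at 15.3, 11.7, and 3.74, and ribosomal proteins are at 2987, 3173, and 847, whereas *SNHG7*, *SNHG12*, and *SNHG15* are highest above 50%.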

How the data were processed

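scRNA-seq of 1 mock-treated and 1 DAC-treated HCT116 library was analyzed. The authors mapped reads to hg38 and processed them using Cell Ranger, and the deposited tables hold raw UMI counts of the listed genes in each cell, not normalized. The annotation release was not given in the sources used here. All deposited cells were used without a filter, and doublets were not called because doublets of 1 cell line carry no marker. Instead, ratios were computed again without the deepest 5% of cells.

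The 9 host genes, the gene lists, and the comparisons were chosen with earlier results of these data known. Genes named beside the hosts were the highest and lowest of each list by CPM ratio (at least 100 UMIs), the 5 genes and the 5 ribosomal protein genes with the highest r with the summed hosts (the lower of both libraries, thinned mean of 0.1 UMI or more), and genes starting within 1000 bases of a host on the opposite strand. Cell type markers, *MALAT1*, *NEAT1*, the TATAA motif, genes overlapping a host on the opposite strand, and the genes given for the cells with the most host UMIs fall outside this rule, and all but the markers were chosen after values were seen.

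UMIs were summed per library and scaled to CPM. Ratios have exact binomial, CPM exact Poisson, and shares exact Clopper-Pearson 95% intervals, for counting error only. With 1 library per group, no test between conditions was made and no p-value is given. Cells were thinned at random to 10000 UMIs. Positions were taken from GENCODE release 44. The computations were tested on simulated data and run with Python 3.11.15, numpy 2.4.6, scipy 1.17.1, pandas 2.3.3, and matplotlib 3.10.9.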

Additional observations from a re-analysis of the deposited data

How the results depend on the processing

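With 1 library per group, no library could be left out, and no paired analysis was possible because each group has a single sample. Over 6 alternatives for each of the 5 hosts, 30 of 30 log2 CPM ratios kept the direction of the values given above and 14 stayed within the counting interval. For *SNHG7* they ranged from 0.24 to 0.50, for *SNHG8* from -2.11 to -1.58, for *SNHG12* from -0.96 to -0.11, for *SNHG15* from -0.34 to -0.08, and for *ZFAS1* from -2.22 to -1.94. For the summed hosts the log2 ratio was -1.44 as reported, -1.63 with median-of-ratios scaling, -1.22 as the mean of per-cell CPM, -1.47 with thinning to 10000 UMIs, -1.46 in cells with up to 20% mitochondrial UMIs, -1.49 without the 5% of cells with the most UMIs, and -1.40 with the total over non-mitochondrial genes. In cells with more than 50% mitochondrial UMIs and the same total, an alternative chosen after the data were seen, it was -0.11, and the values of *SNHG12* (0.12) and *SNHG15* (0.12) turned positive. The cause was not tested. The number of hosts past 0.32 higher on the log2 scale was 1 as reported and 0 with median-of-ratios scaling, which left out *SNHG7*. The number lower was 3 and 4, which added *SNHG15*, and the share of all genes was not computed with this scaling. The other counts of hosts past a fold stayed within 1.5 times. The r of the summed hosts with ribosomal protein UMIs (0.42 in mock- and 0.20 in DAC-treated cells) was 0.52 in mock-treated cells with thinning to 5000 UMIs. For mock- and DAC-treated cells it was 0.87 and 0.66 with unthinned UMIs, where depth enters both measures, 0.56 and 0.14 with shares of all deposited cells, 0.10 and 0.14 in cells with up to 20% mitochondrial UMIs, and 0.061 and 0.087 with thinning to 10000 non-mitochondrial UMIs. Spearman's rho was 0.26 and 0.31. Depth was lowest for *SNHG12* and *SNHG15*, with a median of 1 UMI per cell.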

Other observations

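The cells with the most host RNA differed between the libraries in what else they held. In the 13 DAC-treated cells (top 1%, 29 to 67 host UMIs per 10000), *DDIT3* averaged 13.7 UMIs, compared with 0.216 in the other 1280 cells. *ATF3*, a stress-induced transcription factor gene, averaged 4.62 compared with 0.309, *GADD45A*, a growth arrest gene, 6 compared with 0.698, and *ATF4* 5.46 compared with 1.44. Ribosomal protein UMIs averaged 1419 and 1432, and median depths before thinning were 38703 and 43934 UMIs. In the 14 mock-treated cells chosen in the same way, *DDIT3* averaged 2.57 UMIs compared with 1.46, *ATF3* 0.643 compared with 0.392, *GADD45A* 3.07 compared with 1.84, and *ATF4* 3.93 compared with 3.32. Ribosomal protein UMIs averaged 2770 and 2367 there, with median depths of 30529 and 31510 UMIs. The cells and the genes shown for them were chosen after the data were seen, and these values are a description of few cells.

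The r of the summed hosts with the 6 mRNAs known as targets of nonsense-mediated decay was 0.36 in mock-treated and 0.56 in DAC-treated cells, and 0.36 and 0.30 without the top 1% of cells. With the ATF4 target genes it was 0.39 and 0.41, and 0.38 and 0.16 without those cells. Those cells were chosen by their host UMIs, which can by itself lower r. Hosts were close to unrelated to the cell cycle lists. Over 20 S-phase genes r was -0.03 and -0.04, and over 20 G2/M genes it was 0.06 and -0.02. By level, all 20 S-phase genes had higher CPM in DAC-treated cells, with a median log2 ratio of 1.09, from 0.40 for the replication licensing gene *CDT1* to 1.89 for the checkpoint gene *CLSPN*. All 20 G2/M genes were also higher, with a median of 0.97, from 0.06 for the cyclin gene *CCNB2*, which was below the shift of the median gene, to 1.64 for the spindle gene *TACC3*.

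By depth, the summed hosts in the shallowest of 3 equal sets of cells were at 983 CPM in mock-treated and 618 CPM in DAC-treated cells, compared with 1855 and 684 CPM in the deepest set. The median mitochondrial share of the shallowest set was 54.3% in mock-treated and 20.7% in DAC-treated cells. Its median depth was 7375 and 2179 UMIs, so the shallowest sets were not alike in depth. Mitochondrial UMIs enter the total of CPM, so depth and mitochondrial share cannot be told apart in these values.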
